A study of Drosophila melanogaster with 2 samples.

Results

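Clusters of chromatin-binding summits were examined in embryos of Drosophila melanogaster that carry CG7987 fused to GFP. Members were chosen by position alone: the summits of the deposited list were chained along each chromosome arm when neighbours lay at most 5000 bp apart, and every chain of 4 or more summits was kept. Of the 4410 summits in the list, 894 fell into 182 such clusters. The 3516 other summits comprised 1795 that stood alone, 577 pairs and 189 chains of 3. The largest gap inside a cluster was 4982 bp and the smallest gap at the edge of one was 5064 bp. Because spacing chose the clusters, their number, size and gaps are given as a description. The cbt–ush and Drat clusters hold the strongest summits of the whole list, so results are also given without them, on 876 summits in 180 clusters.

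The assay was chromatin immunoprecipitation with sequencing (ChIP-seq), which maps where a protein sits on DNA. Both biological replicates came from 1 transgenic line, strain CG7987-GFP, with GFP at the C-terminal end of CG7987; embryos of pooled sexes were collected between 0 and 24 h, and chromatin was sonicated to a size range of 200 to 800. The antibody label reads CG7987, while a free-text line of the labels describes the libraries as the input control of that ChIP, and no value here settles which is right. Whole embryos were used, so binding in few cells and weak binding in many cannot be told apart. The list holds peaks that passed an irreproducible discovery rate (IDR) threshold, was made from both replicates and is on the dm6 build. Signal is the strength that the authors' caller gave to each peak, on a scale not given in the sources used here, and sequencing depth is unknown.

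Transcription factors bind short DNA words at promoters, just upstream of where genes start, and at enhancers, which often lie in introns or between genes. Genes under complex control can carry several such elements over a few kilobases. In flies, the sugar sensor Mondo pairs with its partner bigmax on elements built from E-box words such as CACGTG, and cbt and sug are known as genes that this pair controls.

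Windows of 101 bp around summits are shown for the strongest cluster and for others, among them clusters at metabolic and clock genes. Most were chosen because they hold the palindrome CACGTG. It lay in only 39 of 894 clustered windows (4.36%), so the windows shown are not typical. The window of the strongest Desat1 summit, for example, holds none and is not shown. The forward strand of the RefSeq genome (dm6) is given 5′ to 3′, capitals mark CACGTG, and none of the windows touches an annotated exon.
ush intron upstream of cbt, 2L:481243-481343: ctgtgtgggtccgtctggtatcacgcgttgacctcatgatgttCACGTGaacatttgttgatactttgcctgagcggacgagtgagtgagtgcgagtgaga
second ush intron site, 2L:484548-484648: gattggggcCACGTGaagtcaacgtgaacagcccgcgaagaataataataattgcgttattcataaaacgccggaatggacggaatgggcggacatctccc
larp promoter, 3R:28326379-28326479: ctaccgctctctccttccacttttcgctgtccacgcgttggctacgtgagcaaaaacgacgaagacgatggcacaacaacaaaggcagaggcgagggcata
Gbs-70E intron, 3L:14545261-14545361: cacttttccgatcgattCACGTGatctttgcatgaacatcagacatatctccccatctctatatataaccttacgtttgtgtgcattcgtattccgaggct
CG3348 upstream region, 3R:27293179-27293279: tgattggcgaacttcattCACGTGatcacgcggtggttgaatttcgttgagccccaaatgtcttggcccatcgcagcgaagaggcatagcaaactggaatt
Pdp1 promoter, 3L:7867497-7867597: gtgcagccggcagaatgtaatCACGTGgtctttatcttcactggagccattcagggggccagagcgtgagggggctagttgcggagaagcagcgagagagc
bmm intron, 3L:14781296-14781396: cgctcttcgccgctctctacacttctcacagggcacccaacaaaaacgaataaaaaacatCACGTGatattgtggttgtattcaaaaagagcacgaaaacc
The Gbs-70E window is the second strongest of its cluster; the window of the strongest summit there, also in a Gbs-70E intron, holds no CACGTG. The larp window is shown for contrast: it surrounds a stronger summit than those of Gbs-70E, CG3348, Pdp1 and bmm, and holds no CACGTG.

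Most clusters were small. Of the 182, 104 held 4 summits, 34 held 5, 22 held 6, 11 held 7, 5 held 8, 2 held 9, 3 held 10 and 1 held 11. Their span, from first to last summit, had a median of 7265 bp and ran from 1877 to 18525 bp. The gap between neighbours had a median of 1611 bp and was never under 199 bp. No cluster was a single broad peak, since none had all its summits in 1 merged peak interval. Peak intervals of 12.2% of clustered summits overlapped that of another clustered summit. Short gaps were a minority: 53 of 712 gaps (7.44%) were 250 bp or less. Clusters lay on all large arms. They took 23.8% of the IDR summits on 2L, 22.1% on 2R, 19.8% on 3L, 18.9% on 3R and 16.4% on X, and none of the 16 on chromosome 4.

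**Figure D1:**
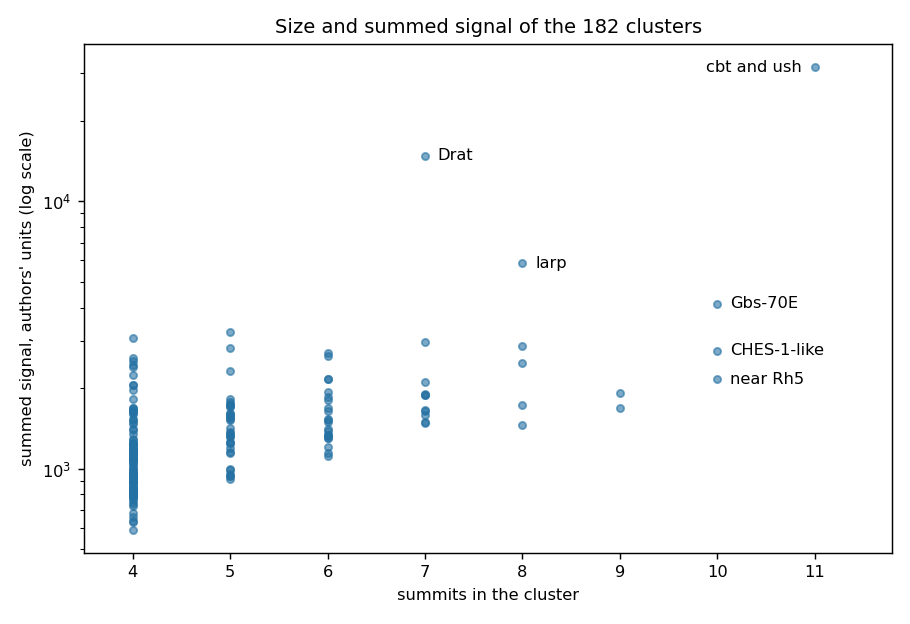
Number of summits in each of the 182 clusters (x) against their summed signal in the authors' units (y, log scale), 1 point per cluster. The cbt–ush cluster, with 11 summits, and the Drat cluster, with 7, lie far above the others, while the clusters at Gbs-70E and CHES-1-like and the one near Rh5 hold 10 summits each at much lower signal.

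The cbt–ush cluster had the most summits and the highest summed signal. It holds 11 summits over 11070 bp of 2L:479186-490256, with a summed signal of 31696. All 11 lie within ush (2L:476220-540560, forward strand), which encodes a cofactor of GATA transcription factors. They fall in 6 merged peak intervals, and the widest peak is 3753 bp. By merged intervals other clusters are larger, such as those at CHES-1-like with 10 and Gbs-70E with 9. The gene cbt (2L:476446-479688, reverse strand), which encodes a zinc-finger transcription factor, lies inside the ush locus and had the only coding start within 500 bp of a member. The strongest summit, in an ush intron 1605 bp upstream of the nearest cbt start, had a signal of 11450 and ranked 2 in replicate 1 and 1 in replicate 2. The next, 502 bp past the cbt start in an annotated 5′ UTR, had 9055 and ranked 3 in both replicates. A summit 622 bp upstream of cbt had 5551 and ranked 4 in both, and the summit nearest the cbt start, 87 bp upstream, had only 311. Beyond these, a pair 4910 and 5109 bp upstream of cbt had 2434 and 1480. The remaining summits reached 579 at most, so the signal was highest on the cbt side and low toward the far end. Some neighbouring summits of this cluster overlap the same replicate candidate, so their replicate ranks are shared.

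The Drat cluster (2R:7525764-7533314) was dominated by 1 summit. Drat encodes a protein related to alcohol dehydrogenases and linked to the response to stress. The summit 61 bp upstream of a Drat start had a signal of 11622, the highest of the list, and held 78.6% of the summed signal of 14778. It ranked 1 in replicate 1 and 2 in replicate 2. Another pair at a further Drat start had 1252 and 1119, and the other 4 summits of the cluster lay between 149 and 241. Cyt-b5 and Orc1, which encodes a subunit of the origin recognition complex, also had a start within 500 bp of a member.

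Below these, the summed signal of a cluster was 5846 at most. The cluster at larp and Gfat2 (3R:28326429-28339816) held 8 summits, with 55.2% of its summed signal in the strongest. The strongest lay 165 bp upstream of a start of larp, which encodes an RNA-binding protein, with a signal of 3224 and rank 5 in each replicate. A second, 368 bp upstream, had 1405, while the 6 others stayed between 155 and 283; the last of them was at the start of Gfat2, an enzyme of the hexosamine pathway. Around Gbs-70E, which encodes a subunit that directs a phosphatase to glycogen, 10 summits covered 14916 bp of 3L:14544234-14559150. The strongest, in a Gbs-70E intron, had a signal of 1216 and replicate ranks of 20 and 58 (replicate 1 is given first here and below), and 5 further summits were intergenic. The forkhead gene CHES-1-like (X:7682338-7709385) had 9 of 10 members of its cluster inside it, from 168 to 604 in signal. No member there had over 21.9% of the cluster's summed signal. Support by replicate differed at this locus, judged by the overlapping candidate with the nearest summit. For 9 of the 10 summits it was among the 4410 strongest of replicate 2, and for 6 among those of replicate 1.

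**Figure D2:**
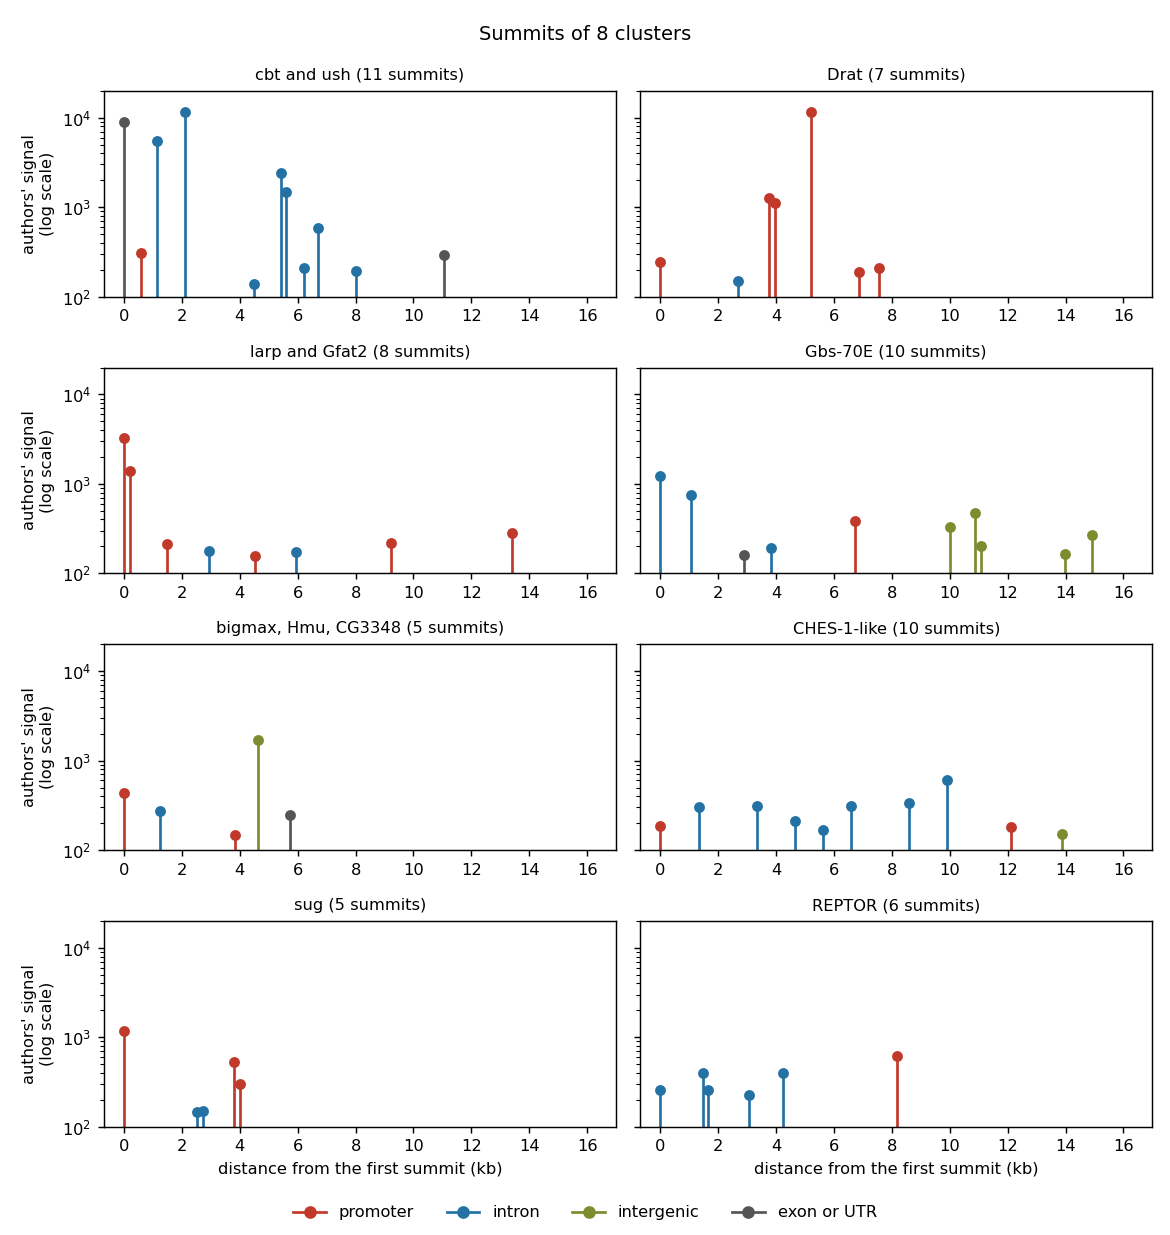
Signal of each summit (authors' units, log scale) against its distance in kb from the first summit of its cluster, for 8 clusters, coloured by where the summit lies. The Drat and larp clusters are led by 1 or 2 promoter summits, the cbt and ush cluster by summits in introns and a 5′ UTR, and the CHES-1-like and REPTOR clusters by no single one.

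A dominant summit was the exception among all clusters. The strongest member held a median of 36.2% of its cluster's signal (15.5% to 78.6%), and the larger part of it in 28 of 182. In the next clusters by signal, jp (a junctophilin, which links membranes in muscle) had a summit of 2018 upstream, with ranks 11 and 12, beside 4 members on the brwl side of 198 to 517. CG2765 and RpL19, a ribosomal protein gene, shared a cluster with promoter summits of 1465 and 906. The cluster at the noncoding gene CR44526 had no coding start near any of its 7 summits, and its strongest member, of 963, was intergenic. A cluster at MFS14, MFS15 and CG15096 on 2R spanned 18525 bp, the longest of the 182. The cluster at Tina-1 was of another kind, with all 6 summits in promoters and 7 coding genes bound: CG12851, CG15861, CG2790, CG2811, CG3760, CG3770 and Tina-1. At CG1888, 6 summits were led by 1 of 1359 that lay 217 bp upstream of its start.

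Clustered summits lay less in promoters than the other summits did. A summit within 500 bp of any annotated start site was counted as a promoter summit, which held for 58.0% of all 4410. Among clustered summits the share was 46.3% (414 of 894, exact Clopper-Pearson 95% interval 43.0% to 49.6%), against 61.0% (59.4% to 62.7%) of the 3516 others. Introns took 40.04% (36.8% to 43.3%) against 27.7% (26.2% to 29.2%), and intergenic sequence 9.96% against 8.59%. Without cbt–ush and Drat the promoter and intron shares were 46.5% and 39.8%. These intervals cover counting error over summits only, and summits of a cluster are neighbours, not independent draws. Intronic clustered summits lay a median of 1979 bp from the nearest start, against 2357 bp for other intronic summits.

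**Figure D3:**
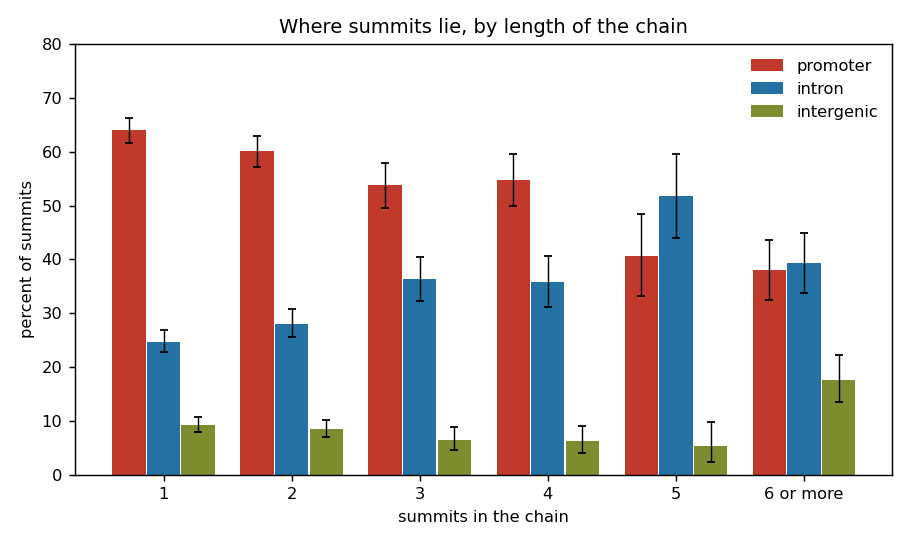
Percent of IDR summits in promoters, introns and intergenic sequence (y) by the number of summits in their chain (x), with exact 95% intervals as error bars. The promoter bars fall from 64.0% in single summits to 38.0% in chains of 6 or more.

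The shares moved with chain length. Promoters held 64.0% of single summits, 60.1% of pairs, 53.8% of chains of 3, 54.8% of chains of 4, 40.6% of chains of 5 and 38.0% of longer chains. The intron share was 24.7% for single summits and 51.8% for chains of 5. It was 39.3% in chains of 6 or more, where intergenic summits made up 17.5%. A few clusters carry much of that last value, among them the 10 intergenic summits near the rhodopsin gene Rh5 and the 7 of the cluster whose strongest summit has the noncoding gene CR45695 as its nearest gene. Median signal was 195 for single summits and 220 for chains of 6 or more.

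Nearly all clusters nevertheless included a promoter: 170 of 182 had at least 1 promoter summit. The strongest member was a promoter summit in 88 clusters, intronic in 75 and intergenic in 15. Single genes filled 61 clusters, in which every summit lay inside the same coding gene or within 500 bp of it. At the other end, 50 clusters had starts of 3 or more coding genes near their summits, and 20 consisted of promoter summits alone. One of these, at PIG-M on 2R, bound 8 coding genes with 4 summits of at most 235 in signal. Among the 8, PIG-M, CG42379, CG42380 and CG42381 are annotated over the same span, so they are not 8 separate promoters. In 19 clusters no coding gene was bound; 6 clusters were intronic throughout and 3 intergenic throughout. The 3 intergenic ones had Rh5, CR45695 and CG43245 as the nearest genes of their strongest summits, 603, 8463 and 32132 bp away. Near Rh5 the 10 signals ran from 155 to 346, so this cluster had many summits and no strong one.

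Both replicates were compared at the clustered summits, with the limit that the IDR list was made from these same replicates. At least 1 candidate of replicate 1 overlapped 886 of the 894 clustered summits, and at least 1 of replicate 2 overlapped 891. A place in the list therefore did not require an overlapping candidate in both. A summit was counted as present in a replicate when the overlapping candidate with the nearest summit was among the 4410 strongest of that replicate. In replicate 1 this held for 79.98% of clustered summits (77.2% to 82.6%), beside 69.7% of other summits and 71.7% of all. In replicate 2 it held for 83.6% (81.0% to 85.9%), beside 85.6% of other summits and 85.2% of all. Presence in both was 66.2% against 58.3%, and 65.8% without cbt–ush and Drat. Across the 883 clustered summits with a candidate in each replicate, signals in the replicates correlated with Pearson's r at 0.572 and Spearman's rho at 0.408. Without the cbt–ush and Drat clusters r was 0.476 and rho 0.387 over 865 summits, so a few very strong sites carried part of r. These are descriptions across sites of the same libraries.

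**Figure D4:**
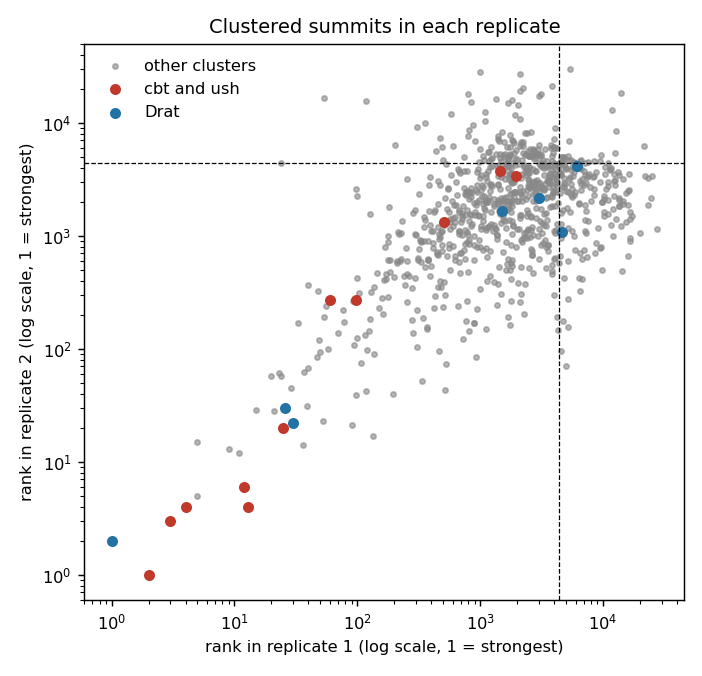
Rank of each clustered summit in replicate 1 (x) and replicate 2 (y), both on log scales with 1 the strongest, for the cbt and ush cluster, the Drat cluster and the others; dashed lines mark rank 4410. The strongest sites of both named clusters lie close to the diagonal at the lower left, while ranks past about 1000 scatter widely.

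Clusters were also built in each replicate alone. Chaining the 4410 strongest candidates of replicate 1 alone gave 200 clusters and those of replicate 2 gave 166. Of the 182 IDR clusters, 127 (69.8%) overlapped a replicate 1 cluster, 128 (70.3%) a replicate 2 cluster, 96 (52.7%) both and 23 neither. Conversely, 63.5% of replicate 1 clusters and 77.7% of replicate 2 clusters overlapped an IDR cluster. Every summit was present in both replicates in 27 clusters, among them cbt–ush with 11 of 11, the bun cluster with 7 of 7 and the cluster shared by Mondo and crc with 4 of 4. In the Pepck1, CG17834 and CG6330 clusters no summit was.

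Start sites of 363 protein-coding genes lay within 500 bp of a clustered summit; such genes are called bound below. They make up 2.60% of the 13945 annotated, and 12.7% of the genes bound by any IDR summit, which were 20.5% of all. With genes that hold a clustered summit anywhere in their length, 404 were covered, or 2.90%. Without cbt–ush and Drat the counts were 359 and 399. The background for each gene list below is 2.60%.

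Regulators of sugar sensing had the highest share among the 24 lists drawn up earlier. Those lists too were chosen with earlier results of these data known, so their order is a description only. Of 13 listed genes 5 were bound, namely Mondo, bigmax, cbt, crp and sug, or 38.5%; without the cbt–ush cluster 4 remained. Of the same 13, 11 were bound by any IDR summit. Mondo and crc, which encodes the fly ATF4 factor, are neighbours and shared a cluster of 4 summits on 2L. Its strongest member lay in a Mondo intron with a signal of 917 and ranks of 49 and 121. The second lay in a crc intron with 817 and ranks of 70 and 137, and those at the Mondo and crc starts had 326 and 176. All 5 summits of the sug cluster lay inside sug (2R:12924567-12930644), a zinc-finger factor induced by sugar. The one 134 bp past its start had 1183 and ranked 29 and 45, and a pair at a further start had 529 and 300. The bigmax promoter summit, 64 bp upstream, had 439 with ranks of 507 and 393. It shares a cluster of 5 with a stronger, intergenic summit of 1714, which lay 1020 bp upstream of CG3348 and is shown above. At crp, which encodes a helix-loop-helix factor, the summit 76 bp upstream had 274.

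Of 18 listed insulin and TOR genes 2 were bound, REPTOR and Thor. REPTOR, a factor held back by the TOR kinase, was covered by 2 clusters with 7 summits inside it. The larger of these held 6 summits from 229 to 611, and its strongest lay 155 bp upstream of a REPTOR start. Thor, the translation inhibitor of the 4E-BP family, had a promoter summit of 307. The next genes belong to none of the 24 earlier lists and are described as single loci, each being the nearest gene of its cluster's strongest summit. Lk6, a kinase of the initiation factor eIF4E, led a cluster with 1 intronic summit of 1066 beside 4 of 142 to 315. Hnf4, a nuclear receptor of lipid and glucose metabolism, had 5 summits from 147 to 534. PRAS40, a TOR complex component, had 5 from 189 to 374. The lipase gene bmm, which releases stored fat, had 4 intronic summits of 168 to 801 and no start near any of them; the strongest is shown above.

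Enzymes of central metabolism were counted in 3 lists drawn up later, after clusters at several of these enzymes had been seen, so their counts describe the loci and support nothing further. Of 19 glycolysis genes 6 were bound: Eno, Gpdh1, Gpo1, Hex-A, Pdk and Pgk. The Hex-A summit, of 271, overlapped no candidate of replicate 1 and ranked 584 in replicate 2. Summits at Pgk starts reached 369 and those at Eno reached 306. The 4 Gpdh1 summits lay between 194 and 275, all inside that gene of glycerol phosphate metabolism. Of 10 genes of gluconeogenesis and the pentose phosphate pathway 2 were bound, Pepck1 and CG8036, and Pepck2 held intronic summits. Of 20 genes of fatty acid and sterol metabolism 7 were bound, among them AcCoAS, Desat1, FASN1, LPCAT and Lsd-1, and FASN2 and bmm held summits. The Desat1 cluster, at a fatty acid desaturase, had an intronic summit of 1053 with ranks of 37 and 63. At FASN1, the fatty acid synthase, the strongest member was intronic with 743, and the one at its start had 237.

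Ribosomal protein genes in clusters were bound close to their starts. Of 90 listed, 14 (15.6%) were bound by clustered summits, while 72 of 90 were bound by any IDR summit. Among them were RpL3, RpL6, RpL8, RpL19, RpL22, RpL28, RpL34b, RpLP2, RpS12, RpS14a, RpS14b and RpS25. The strongest promoter summits of the 14 ran from 217 at RpL6 to 906 at RpL19 and lay no more than 61 bp from a start of the gene. RpS25 and RpL3 shared a cluster, with 847 at 41 bp upstream and 584 at 6 bp upstream. RpS14a and RpS14b are near-identical neighbours, so the split of signal between them is uncertain. RpLP2 differed between replicates, with ranks of 996 and 28472. Of 52 translation factors 4 were bound: eEF1alpha1, eIF1, eIF4A and eIF4E1, with summits of 495, 841, 210 and 162. The eIF1 summit is the one at RpL28, which lies next to it.

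**Figure D5:**
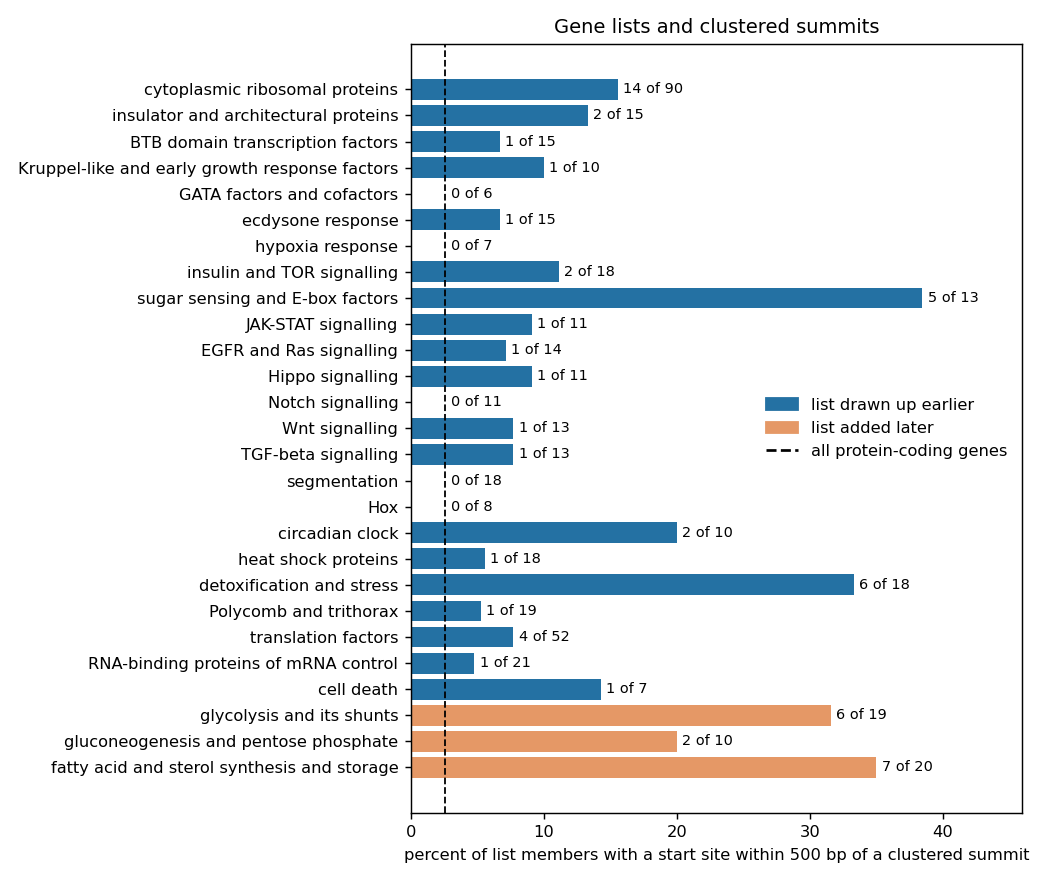
Percent of each gene list (x) whose members had a start site within 500 bp of a clustered summit, with the count beside each bar; the dashed line is the 2.60% of all protein-coding genes, and orange bars are the lists added later. Sugar sensing (5 of 13) and detoxification and stress (6 of 18) have the longest bars among the earlier lists, and 5 lists have none. The earlier lists too were chosen with earlier results of these data known.

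Stress genes had the next highest share of those lists. Of 18 listed 6 were bound: Drat, Gadd45, Keap1, Men, crc and puc; without the Drat cluster 5 remained. Drat had 11622, as above, while the promoter summits of the others were 290 at Gadd45, 298 at Keap1 (an inhibitor of the antioxidant factor CncC), 202 at Men, 176 at crc and 267 at puc, a phosphatase of the JNK pathway. Of 10 clock genes 2 were bound, both transcription factors. Pdp1 had a summit of 1158 at 178 bp upstream with ranks of 23 and 61, and the other 4 of its cluster stayed between 142 and 153. The repressor gene cwo had 311 near its start. Of 18 heat shock genes only Hsp83, a chaperone, was bound, with 1571 at 89 bp upstream and ranks of 15 and 29.

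Chromatin and insulator lists are short, so 1 or 2 genes set their shares. Of 15 insulator and architectural genes 2 were bound, Trl (the GAGA factor, with 229) and pzg (281), and Trl was also the 1 of 15 BTB-domain factors. Of 19 Polycomb and trithorax genes ph-p was bound, with 1297 at 497 bp upstream. Its replicate ranks of 90 and 21 were high, but a summit in its intron ranked 27579 and 1151. Of 21 RNA-binding genes larp was bound, and of 10 Krüppel-like genes cbt. None of the 6 GATA genes was bound, although ush holds 11 summits.

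The developmental signalling lists gave 1 member each or none. Socs36E was the 1 of 11 JAK-STAT genes, edl of 14 EGFR genes, fz3 of 13 Wnt genes and shn of 13 TGF-beta genes, and their promoter summits lay between 170 and 230. The kinase gene Raf held 6 summits in a cluster, from 205 to 574, without a start near any. The ligand gene daw likewise held summits of up to 375. Diap1, an inhibitor of caspases, was the 1 of 11 Hippo genes and of 7 cell death genes; 4 summits lay near its starts, none above 223. Of 11 Notch genes, 18 segmentation genes, 8 Hox genes and 7 hypoxia genes none was bound by a clustered summit. By any IDR summit 4 Notch, 4 segmentation, 0 Hox and 4 hypoxia genes were.

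Several long genes carried dispersed summits. Eip75B (3L:17950953-18064696), a nuclear receptor gene of the ecdysone response, held 10 summits in 2 clusters. In the one led by 507, ranks of that summit were 165 and 408; in the other the signals ran only from 147 to 275 and 1 of 5 summits was present in both replicates. Eip75B was the 1 bound of 15 ecdysone genes, and Hr4 held intronic summits of up to 513. NFAT, encoding a transcription factor of calcium signalling, held 7 summits from 160 to 622. The genes tara and bun, whose products act in transcription, also held 7 each, at most 432 and 332. Coding genes that hold clustered intronic summits had a median length of 14856 bp, against 18851 bp for those that hold other intronic summits and 2166 bp for all coding genes.

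Sequence around the summits was searched for 16 motifs within 50 bp on either side, on both strands, and in windows of the same length centred 400 bp away. The CACGTG palindrome lay in 4.36% of clustered windows (39 of 894, 3.12% to 5.92%) and 3.995% without cbt–ush and Drat. It lay in 2.93% (2.40% to 3.54%) of other IDR windows and in 3.22% of all. Within promoters alone it lay in 3.14% (1.68% to 5.31%) of clustered windows and 2.80% (2.14% to 3.58%) of others. Within introns it lay in 5.31% (3.23% to 8.16%) and 3.70% (2.60% to 5.08%). Windows beside the clustered summits held it in 0.951% on average. Among the 100 strongest peaks, 8 of the 41 clustered windows held it (19.5%, 8.82% to 34.9%), beside 3 of the 59 other ones (5.08%, 1.06% to 14.1%). Of these 8, 4 were in the cbt–ush and Drat clusters, without which 33 clustered summits were among the 100 strongest peaks. The intervals overlap, and no test was made.

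CACGTG words were also counted by cluster, with no baseline, so the counts do not show whether they spread or stack. At least 1 window held CACGTG in 34 of 182 clusters, 2 or more windows in 4, and 3 windows in the cbt–ush cluster alone. There, the word was centred 4.5 bp from the strongest summit, 10.5 bp from the second strongest and 38.5 bp from the one of 2434. At Drat it lay 21.5 bp from the strongest. Other windows with it lay at Gpdh1, NFAT, puc and Bsg, with signals of 275, 217, 154 and 385. A match is a description of the letters and does not show which protein was bound.

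The shares of the other words differed in both directions. CGATA, the core word of the BEAF-32 insulator protein, lay in 15.8% (13.4% to 18.3%) of clustered windows against 21.3% (19.99% to 22.7%) of others. Within promoters alone the shares were 20.05% and 26.1%. TATCGATA, which contains CGATA and is known from promoters of replication genes, lay in 1.57% against 3.10%. None of the 358 intronic clustered windows and none of the 974 other intronic windows held it. Within promoters alone it lay in 3.38% (1.86% to 5.61%) against 5.08% (4.19% to 6.09%), and these intervals overlap. The E-box CAGCTG was in 8.05% against 6.97%, with 3.69% beside clustered summits and 4.38% beside others. The FOXO word GTAAACA was in 6.15% against 6.23%, with 2.46% beside clustered summits and 2.35% beside others. The GAGAG repeat was in 18.7% against 15.3%. It differed in the same direction beside the summits, with 15.1% beside clustered ones and 12.4% beside others. The core promoter word GGTCACACT was in 1.79% against 2.19%. Within promoters alone its shares were 3.86% and 3.54%, and no intronic window of either kind held it. The median GC content of the window was 44.6% in clusters and 42.6% elsewhere.

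The other 9 words are given for clustered windows against other windows. ACGTG, which CACGTG contains, lay in 12.6% against 11.5%, and TATAAA in 10.96% against 11.3%. AGATAA, the GATA word, lay in 7.83% against 6.26%, CACACACA in 4.92% against 3.47%, and GGGCGG in 4.59% against 3.498%. TAATTA, the homeodomain word, lay in 5.03% against 4.69%, TGANTCA, the AP-1 word, in 1.68% against 2.53%, CAGGTAG in 0.224% against 0.540% and TGACGTCA in 0.224% against 0.284%. Within promoters alone, TGANTCA lay in 0.483% (2 of 414, 0.0586% to 1.73%) of clustered windows against 2.38% (1.77% to 3.11%) of others. Within introns its shares were 2.79% and 3.18%. The promoter value rests on few windows and is 1 of many for the 16 words, and no test was made.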

How the data were processed

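ChIP-seq peaks were taken from 2 biological replicates of 1 group, and no comparison between groups was possible. Per the deposited readme texts, the authors called candidates on replicate 1, replicate 2 and their pool against 1 control library each, 30000 per list, and derived the IDR list from them. Aligner, caller and threshold were not given in the sources used here. Signal values as deposited are the authors' own, and the deposited −log10 q-values were tied over the IDR list, so peaks were ranked by signal. Depth is unknown.

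The members and the gene lists were chosen with earlier results of these data known, and 3 lists beside the first 24 were added after the clusters had been seen. Summits were chained at 5000 bp and placed in the Ensembl 115 annotation without transposable elements, with promoters taking precedence, then exons by kind, then introns. Each summit took the values of the overlapping replicate candidate with the nearest summit. No test was made. Clopper-Pearson intervals (exact, 95%) describe counting error only. Genes were named by rule: the nearest gene of each cluster's strongest summit, coding genes bound and introns occupied in the 12 clusters of highest summed signal and the 5 with most summits, bound list members, and cbt, ush and Drat. Hr4, Pepck2 and FASN2, covered but not bound, fall outside it; they were chosen with their values in view. In the lists, 5 symbols found no gene and were left out. Some list members are not reported here by name. Alternatives covered the chain distance, chain length, promoter window, merging of peaks, strength, list and each replicate. Functions were tested on simulated data. The software was scipy 1.17.1, pandas 2.3.3, numpy 2.4.6 and matplotlib 3.10.9 under Python 3.11.15.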

Additional observations from a re-analysis of the deposited data

How the results depend on the processing

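The number of clusters depends on how chains are defined. A chain distance of 2500 bp gave 68 clusters with 330 summits (promoter share 37.3%, intron share 47.3%), and 10000 bp gave 313 with 1748 (52.2% and 35.8%). Requiring 3 summits gave 371 clusters with 1461, and 5 gave 78 with 478 (38.9% and 43.7%). The stronger 2205 peaks gave 43 clusters with 196 summits (promoter share 36.2%), and all pooled candidates 2223 with 26308 (promoter share 35.0%). A promoter window of 250 bp gave shares of 38.6% and 44.4%, and one of 1000 bp gave 58.7% and 32.1%. Using 1 replicate at a time gave 166 to 200 clusters, 808 to 1043 summits, promoter shares of 43.2% to 45.4% and intron shares of 39.7% to 42.1%. Merging overlapping peaks first gave 159 clusters, and joining summits within 250 bp, an alternative chosen after seeing the data, gave 161. No paired analysis was possible because there is 1 group. Signal has no stated scale and depth is unknown, so absence of a summit from a cluster does not show absence of binding.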
